A study of Homo sapiens with 18 samples.

Results

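The genes described here are HSF1, the transcription factor that drives the heat shock response, and 9 heat shock protein genes: HSPA1A, HSPA1B, HSPA8, HSP90AA1, HSP90AB1, HSPB1, DNAJB1, HSPH1 and HSPD1. They were chosen by symbol from the deposited RNA table, where they make up 10 of 55766 genes. All 10 passed the filter on low counts and so belong to the 13786 genes tested. Their RNA was compared between K562 cells in which a B2M reporter had been silenced and cells that had not been treated.

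K562 is an established human erythroid leukaemia line. All cells in every group carried the B2M:tdTomato transgene, in which a red fluorescent protein reports on B2M, the gene for the light chain of MHC class I. The labels call the control cells untreated and say no more of them. TALE silenced and dCas9 silenced cells were given 3 plasmids together, 1 for each of 3 engineered repressors that bring DNA methylation to the B2M promoter. TALE proteins and dCas9, a Cas9 that does not cut, are programmable DNA-binding domains, and the dCas9 cells also received a plasmid coding for a guide RNA. Per the sample labels each group has 3 RNA-seq and 3 MeDIP-seq samples, where MeDIP-seq counts DNA pulled down with an antibody to 5-methylcytosine. The labels do not say that replicates came from separate cultures, how long after treatment the cells were collected, whether untreated cells received any plasmid, or whether the cells are 1 clone. The p-values therefore measure the spread between these samples, which may be technical.

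In resting cells HSF1 is held inactive by chaperones, HSP70 and HSP90 among them. When unfolded proteins occupy those chaperones, HSF1 forms trimers, binds heat shock elements in DNA and raises transcription of chaperone genes, whose products in turn quiet HSF1. Heat, proteasome inhibitors, heavy metals and a large load of foreign protein are known inducers, and the inducible HSP70 genes HSPA1A and HSPA1B are the usual markers of the response. Leukaemia lines often hold high basal levels of several chaperones.

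A heat shock element is built from the 5-base unit nGAAn in alternating orientation. The promoter windows of these genes were searched on both strands for 3 spelled-out forms, GAANNTTC, TTCNNGAA and the 3-unit form GAANNTTCNNGAA, which contains both shorter ones. The windows came from RefSeq on GRCh38.p14 and run from 250 bases before to 50 bases after a transcript start. There were 15 windows for 9 of the genes. HSF1 is not in that table. At least 1 of the 3 forms was present in 9 of 15 windows, against 13.5% of all 35116 promoter windows of the same length. The 3-unit form was in 4 of 15 windows against 0.490% of all. GAANNTTC alone was in 9 of 15 against 6.77%, and TTCNNGAA in 4 of 15 against 7.74%. A match is a description of letters in a window and does not show that HSF1 binds there. The stretches are printed because they hold the letters through which HSF1 is known to act, found in 8 of the 9 genes. They cover 8 of the 9 windows with a match, and a GAANNTTC just after another DNAJB1 start is not printed. Each is given 5′ to 3′ on the gene's strand, with matched bases in capitals. Both HSPA8 stretches and the HSPD1 stretch overlap 2 annotated exons each of their own gene, and are printed with shorter flanks.
HSPA1A, chr6:31815417-31815464, plus strand: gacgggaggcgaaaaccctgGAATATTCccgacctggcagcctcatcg
HSPA1B, chr6:31827613-31827660, plus strand: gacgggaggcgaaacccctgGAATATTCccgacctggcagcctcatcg
HSPA8, chr11:123062346-123062374, minus strand: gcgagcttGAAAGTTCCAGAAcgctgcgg
HSPA8, chr11:123062171-123062199, minus strand: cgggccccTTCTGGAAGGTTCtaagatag
HSP90AA1, chr14:102087085-102087152, minus strand: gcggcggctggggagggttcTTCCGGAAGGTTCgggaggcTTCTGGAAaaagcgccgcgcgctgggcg
HSP90AB1, chr6:44247758-44247863, plus strand: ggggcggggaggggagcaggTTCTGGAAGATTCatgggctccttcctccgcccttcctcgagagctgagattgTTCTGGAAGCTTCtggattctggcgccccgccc
HSPB1, chr7:76302471-76302518, plus strand: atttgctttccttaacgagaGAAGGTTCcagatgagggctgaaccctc
DNAJB1, chr19:14518417-14518494, minus strand: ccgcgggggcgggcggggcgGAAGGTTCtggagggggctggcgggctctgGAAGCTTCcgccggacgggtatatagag
HSPD1, chr2:197500063-197500090, minus strand: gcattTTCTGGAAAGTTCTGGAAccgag

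The HSPA1A and HSPA1B stretches are copies of each other that differ at 1 of 48 bases, A15C, counted from the 5′ end of the stretch. The same element lies at nearly the same distance before both starts, 126 to 79 bases before HSPA1A and 125 to 78 before HSPA1B for the printed stretch. HSPH1, which codes for HSP110, had 1 window and none of the 3 forms in it. No match says only that these letters are not in that window.

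Total RNA counts ran from 8460076 to 12050554 per library. The reporter was checked first: the B2M_tomato entry, named for the transgene, had 3115 to 4109 counts in untreated libraries, 128 to 196 in TALE libraries and 140 to 205 in dCas9 libraries. The erythroid identity of the cells was visible in all 9 libraries, where each of 7 K562 markers, the globins HBG1, HBG2, HBE1 and HBZ with GATA1, TFRC and KLF1, lay between 51.6 and 4800 CPM, the unit of counts scaled to a common library size. Their summed level was 8006 to 8588 CPM in untreated, 6282 to 10044 in TALE and 6339 to 9608 in dCas9 libraries. Markers of other blood cells (CD3E, MS4A1, CD14 and MPO) had 0 to 6 counts per library. Mitochondrially encoded genes took 7.15 to 10.3% of counts in untreated libraries, 4.04 to 6.32% in TALE libraries and 6.15 to 14.01% in dCas9 libraries. The TALE libraries thus lay below all 3 untreated libraries in this share, and dCas9 replicate 2 was the highest of all 9. RNA levels below are CPM scaled by TMM factors, and "silenced" averages TALE and dCas9 with equal weight.

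No gene of the 10 passed an edgeR adjusted p under 0.05 in any contrast. In TALE against untreated 0 of 10 were called, with 0.0218% of all tested genes called. In dCas9 against untreated it was 0 of 10 with 0.029% of all genes, in TALE against dCas9 0 of 10 with 0% of all genes, and in silenced against untreated 0 of 10 with 0.0363%. DESeq2 also called 0 of the 10 in each. At an unadjusted edgeR p under 0.05, TALE against untreated had 3 of the 10 (HSPA1A, HSPA1B and HSPH1, all higher in TALE) against 7.15% of all genes, of which 2.86% were higher. The same count was 1 of 10 (HSPB1, higher in dCas9) against 5.93% for dCas9 and untreated (3.1% higher), 2 of 10 (HSPA1B and HSPH1, higher in TALE) against 6.38% for TALE and dCas9 (2.6% higher), and 1 of 10 (HSPA1A, higher in silenced) against 6.35% for silenced and untreated (2.69% higher). With 10 genes, 1 gene is 10% of the list, so a count of 1 cannot be told from these backgrounds. All 3 libraries of TALE lay above all 3 untreated libraries in CPM for 3 of 10 genes (HSPA1A, HSPA1B and DNAJB1), where 12.5% of all genes did not overlap and 6.09% lay higher. For dCas9 and untreated it was 1 of 10 (HSPB1) against 11.6% and 5.6%, for TALE and dCas9 3 of 10 (HSPA1B, HSPA8 and HSP90AB1, higher in TALE) against 9.38% and 4.88%, and for silenced and untreated 0 of 10 against 3.54% and 1.53%.

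The fitted log2 fold change lay above 0 for 10 of 10 genes in TALE against untreated, where 50.6% of all tested genes did. It lay above 0 for 4 of 10 in dCas9 against untreated (49.2% of all), 9 of 10 in TALE against dCas9 (50.4%) and 9 of 10 in silenced against untreated (50.1%). The median over the 10 genes was 0.21, −0.02, 0.23 and 0.12 in that order. The median over all tested genes was 0.00 in each of the 4. The TALE and dCas9 comparisons share their untreated libraries, and the 10 genes are not independent of each other. Leaving out 1 library at a time left 9 or 10 of the 10 above 0 in TALE against untreated, with a median from 0.16 to 0.31. The count of 3 at an unadjusted p under 0.05 ran from 0 to 3 over the same fits. It was 0 without untreated replicate 2 (4.43% of all genes passed), 0 without TALE replicate 1 (4.92%) and 1 without untreated replicate 3 (3.17%). It stayed at 3 without TALE replicate 3, where 14.4% of all genes passed. In dCas9 against untreated 4 to 7 of the 10 lay above 0, with 7 of 10 and a median of 0.07 without untreated replicate 1, and a median of −0.07 without dCas9 replicate 1. In TALE against dCas9 the count was 8 or 9, with a median from 0.17 to 0.29. In silenced against untreated it was 8 to 10, with a median of 0.07 without untreated replicate 3 and 0.19 without untreated replicate 1. The count at an unadjusted edgeR p under 0.05 ran from 0 to 1 in dCas9 against untreated, where 3.73 to 9.60% of all genes passed. It ran from 0 to 4 in TALE against dCas9. It was 0 there without TALE replicate 1 (4.61% of all genes) and 4 without TALE replicate 3 (12.7% of all genes).

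**Figure D1:**
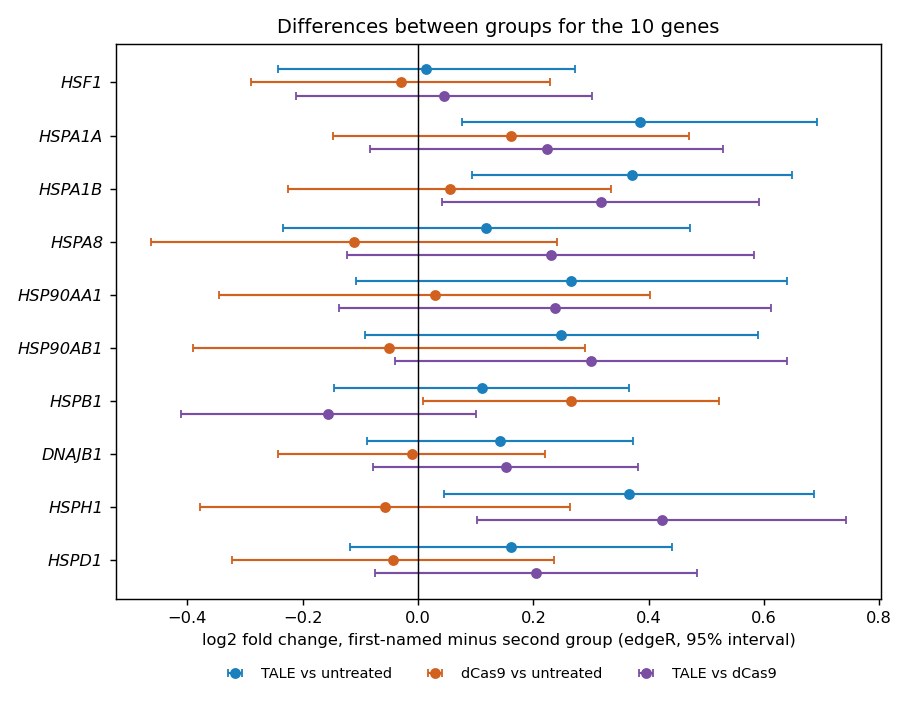
Log2 fold change of each of the 10 genes in TALE against untreated, dCas9 against untreated and TALE against dCas9, as points with 95% intervals from the edgeR fit, and a line at 0. In TALE against untreated all 10 points lie at or above 0.01 and 3 intervals (HSPA1A, HSPA1B, HSPH1) exclude 0 before adjustment; in dCas9 against untreated 1 interval (HSPB1) does.

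HSF1 RNA was at 55.2, 54.1 and 60.6 CPM in untreated replicates 1, 2 and 3. In TALE replicates it was at 57.4, 61.7 and 52.3 CPM, and in dCas9 replicates at 51.9, 49.6 and 64.8 CPM. The groups overlap fully, and the highest and the lowest of the 9 values are both dCas9 libraries. Its log2 fold change was 0.01 in TALE against untreated (SE 0.123, 95% interval −0.24 to 0.27, edgeR adjusted p 0.995) and −0.03 in dCas9 against untreated (SE 0.123, −0.29 to 0.23, adjusted p 0.996). The sign of both changed when single libraries were left out. These data measure HSF1 RNA only. HSF1 is regulated mainly by its assembly and modification, which RNA counts do not read.

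The inducible HSP70 pair came next. HSPA1A (chr6:31783320-31785723 in GRCh37, plus strand) and HSPA1B (chr6:31795515-31798031, plus strand) are neighbouring single-exon genes that code for the same chaperone and are near-identical in sequence. How the authors assigned reads that match both is not given in the sources used here, so the split of counts between them is uncertain. HSPA1A was at 99.7, 89.8 and 87.7 CPM in untreated replicates 1, 2 and 3. In TALE replicates it was at 146.0, 116.0 and 100.3 CPM, and in dCas9 replicates at 89.1, 123.7 and 97.7 CPM. All 3 TALE values lie above all 3 untreated values, TALE replicate 3 by the smallest margin, while dCas9 overlaps both groups. The group means were 92.4 ± 6.37 CPM untreated, 121 ± 23.2 TALE and 103 ± 18.0 dCas9 (SD, n = 3 each). In TALE against untreated the log2 fold change of HSPA1A was 0.38 (SE 0.146, 95% interval 0.08 to 0.69), with an unadjusted edgeR p of 0.0173 and an adjusted p of 0.585. Without TALE replicate 1, the highest library, it was 0.23.

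HSPA1B, the second copy, was at 33.5, 28.2 and 28.7 CPM in the untreated samples. TALE replicates had 42.9, 38.2 and 36.1 CPM, and dCas9 replicates 32.2, 26.6 and 35.2 CPM. The 3 TALE values are the 3 highest of all 9, so TALE overlaps with neither of the other groups, and dCas9 overlaps with untreated. In TALE against untreated its log2 fold change was 0.37 (SE 0.132, 95% interval 0.09 to 0.65), with an unadjusted edgeR p of 0.0115 and an adjusted p of 0.585. Against dCas9 it was 0.32 (SE 0.131), with an edgeR adjusted p of 0.745. For both genes the exact two-sided permutation p for TALE against untreated was 0.1, the smallest that 3 against 3 libraries can give.

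Summing the counts of HSPA1A and HSPA1B removes the question of how they were split. It does not show whether reads that match both were counted. The summed log2 fold change was 0.38 in TALE against untreated (SE 0.133, edgeR adjusted p 0.585) and 0.14 in dCas9 against untreated (SE 0.133, adjusted p 0.974). TALE against dCas9 gave 0.25 (SE 0.133, adjusted p 0.814). The ratio of HSPA1A to HSPA1B counts was 2.97, 3.19 and 3.06 in untreated replicates, 3.40, 3.03 and 2.78 in TALE replicates and 2.76, 4.65 and 2.77 in dCas9 replicates. In dCas9 replicate 2 it stands apart at 4.65, with a 95% counting interval of 4.06 to 5.32 from the Wilson interval of the HSPA1A share, which covers counting error only. The highest upper bound among the other 8 libraries was 3.78, in TALE replicate 1. In dCas9 replicate 2 HSPA1A was the highest of the dCas9 group and HSPA1B the lowest of all 9. The same dCas9 library also had the highest mitochondrial share, 14.01%, and whether the share plays a part in the ratio was not tested.

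HSPA8 (chr11:122928197-122933938 in GRCh37, minus strand) codes for HSC70, the constitutive HSP70 that folds new proteins and uncoats clathrin vesicles. It had the highest count level of the 10 genes. Untreated replicates 1, 2 and 3 had 3536, 3108 and 2813 CPM, TALE replicates 3383, 3370 and 3515 CPM, and dCas9 replicates 3090, 2577 and 3088 CPM. Untreated replicate 1 is the highest of all 9, so untreated and TALE overlap, while the 3 TALE values lie above the 3 dCas9 values. The log2 fold change was 0.12 in TALE against untreated (95% interval −0.23 to 0.47, edgeR adjusted p 0.906), −0.11 in dCas9 against untreated (−0.46 to 0.24, adjusted p 0.994) and 0.23 in TALE against dCas9 (−0.12 to 0.58, adjusted p 0.858). Without untreated replicate 1 the first 2 values were 0.21 and −0.02, and without untreated replicate 3 they were 0.04 and −0.19.

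**Figure D2:**
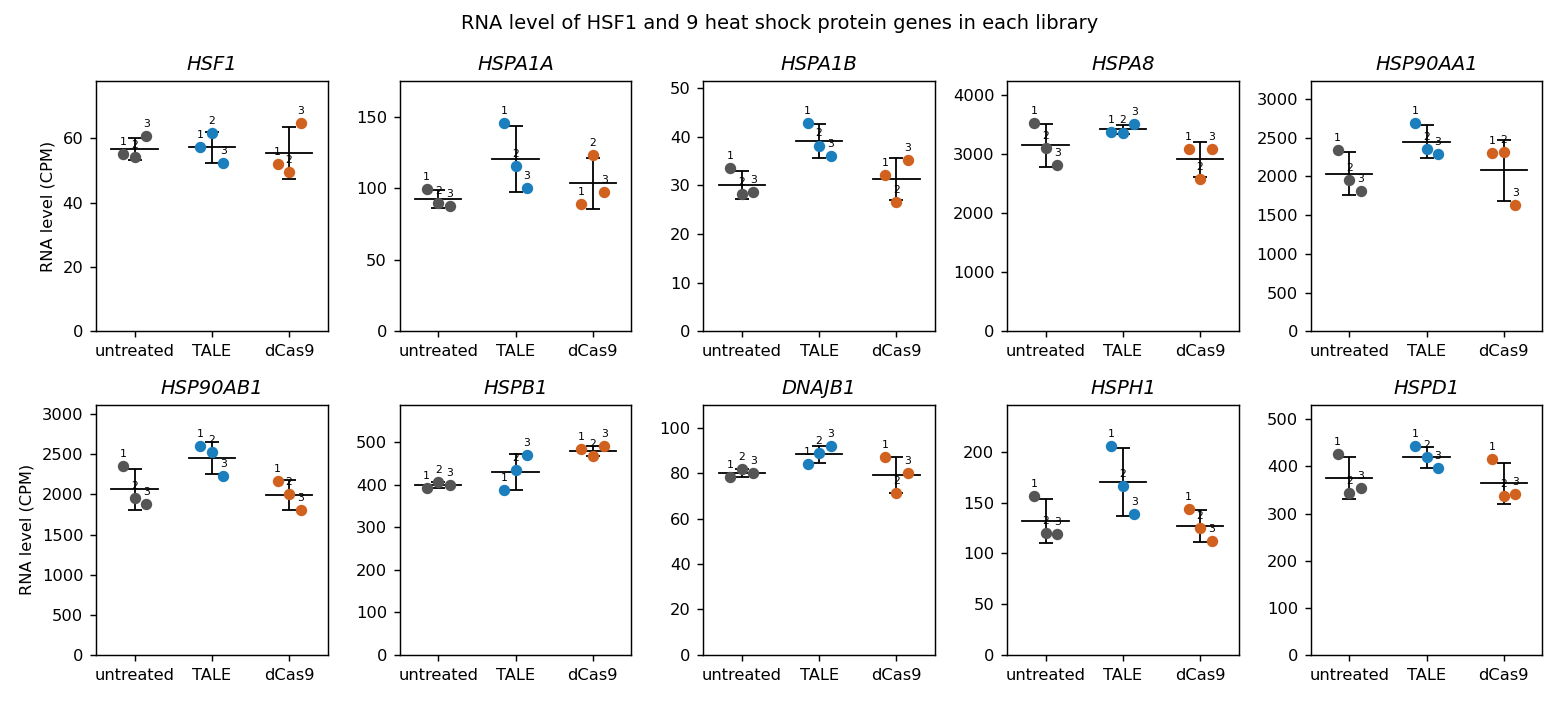
CPM of each of the 10 genes by group, 1 point per library with its replicate number, a black line at the group mean and a bar of 1 SD either side (n = 3); each panel's axis starts at 0. The 3 TALE points lie above the 3 untreated points for HSPA1A, HSPA1B and DNAJB1, and the 3 dCas9 points lie above the untreated points for HSPB1.

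The cytosolic HSP90 genes code for the chaperone that matures kinases and steroid receptors and that binds inactive HSF1. HSP90AA1 (chr14:102547079-102606036 in GRCh37, minus strand) is the stress-inducible form. It was at 2344, 1960 and 1806 CPM in untreated replicates, 2694, 2359 and 2294 in TALE replicates and 2298, 2311 and 1625 in dCas9 replicates. The groups overlap, and dCas9 replicate 3 is the lowest of all 9. Its log2 fold change was 0.27 in TALE against untreated (95% interval −0.11 to 0.64, edgeR adjusted p 0.796) and 0.03 in dCas9 against untreated (−0.35 to 0.40, adjusted p 0.997).

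HSP90AB1 (chr6:44213903-44221625 in GRCh37, plus strand) is the constitutive form. It was at 2355, 1958 and 1878 CPM in untreated replicates, 2598, 2528 and 2230 in TALE replicates and 2168, 2006 and 1802 in dCas9 replicates. The 3 TALE values lie above the 3 dCas9 values, and TALE replicate 3 lies below untreated replicate 1. The log2 fold change was 0.25 in TALE against untreated (95% interval −0.09 to 0.59, edgeR adjusted p 0.784) and 0.30 in TALE against dCas9 (−0.04 to 0.64, adjusted p 0.814). Raw counts of the inducible and the constitutive form were almost equal. The ratio of HSP90AA1 to HSP90AB1 counts was 0.995, 1.00 and 0.962 in untreated, 1.04, 0.933 and 1.03 in TALE and 1.06, 1.15 and 0.902 in dCas9 replicates. The dCas9 group holds both the highest and the lowest ratio. These counts are not divided by gene length. Per kilobase of annotated exon, HSP90AA1 averaged 429 CPM and HSP90AB1 728 CPM over the 9 libraries.

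HSPB1 (chr7:75931990-75933612 in GRCh37, plus strand) codes for HSP27, a small heat shock protein that holds unfolded proteins without ATP. It was at 393, 406 and 398 CPM in untreated replicates, 386, 435 and 470 in TALE replicates and 483, 466 and 490 in dCas9 replicates. The untreated replicates sit close together and all 3 dCas9 values lie above them, while TALE reaches into both groups. Group means were 399 ± 6.22, 431 ± 42.3 and 480 ± 12.1 CPM for untreated, TALE and dCas9 (SD, n = 3 each). The log2 fold change in dCas9 against untreated was 0.27 (SE 0.122, 95% interval 0.01 to 0.52), with an unadjusted edgeR p of 0.0431 and an adjusted p of 0.827. Over all alternative settings and left-out libraries it stayed between 0.25 and 0.29. Its unadjusted edgeR p was not under 0.05 with no filter or with the replicate block. The same held without any 1 untreated or dCas9 library, and without TALE replicate 2. HSPB1 was the 1 gene of the 10 whose mean was lower in TALE than in dCas9, by a log2 difference of −0.16 (95% interval −0.41 to 0.10, edgeR adjusted p 0.868). That difference was −0.08 without TALE replicate 1 and −0.22 without TALE replicate 3.

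DNAJB1 (chr19:14625581-14671203 in GRCh37, minus strand) codes for HSP40, the J-domain partner that hands substrates to HSP70 and takes part in shutting HSF1 off. It had the lowest coefficient of variation of the 10 genes. Untreated replicates had 78.3, 81.7 and 80.1 CPM, TALE replicates 84.2, 88.8 and 91.8 and dCas9 replicates 87.0, 71.2 and 79.9. All 3 TALE values lie above the untreated ones, by a small margin, and dCas9 spans both sides. For DNAJB1 the log2 fold change in TALE against untreated was 0.14 (95% interval −0.09 to 0.37, edgeR adjusted p 0.815).

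HSPH1 (chr13:31709110-31736525 in GRCh37, minus strand) codes for HSP110, which releases nucleotide from HSP70 and helps it to dissolve aggregates. Untreated replicates had 156.7, 119.7 and 119.2 CPM, TALE replicates 205.4, 166.4 and 138.6 and dCas9 replicates 143.3, 125.5 and 111.8. TALE replicate 1 is the highest of all 9 and TALE replicate 3 lies below untreated replicate 1, so the groups overlap. The log2 fold change was 0.37 in TALE against untreated (SE 0.152, 95% interval 0.05 to 0.69), with an unadjusted edgeR p of 0.0275 and an adjusted p of 0.649. In TALE against dCas9 it was 0.42 (SE 0.152, 0.10 to 0.74), the largest difference of any of the 10 genes in any contrast here, with an adjusted edgeR p of 0.706. Without TALE replicate 1 the values were 0.21 against untreated and 0.27 against dCas9, and without TALE replicate 3 they were 0.49 and 0.55.

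HSPD1 (chr2:198351308-198381461 in GRCh37, minus strand) codes for HSP60, the chaperonin of the mitochondrial matrix, encoded in the nucleus. It was at 427, 344 and 354 CPM in untreated replicates, 443, 419 and 397 in TALE replicates and 415, 336 and 341 in dCas9 replicates. Replicate 1 is the highest of each group, but the replicate numbers were not found to pair the samples. All groups overlap, with a log2 fold change of 0.16 in TALE against untreated (95% interval −0.12 to 0.44, edgeR adjusted p 0.829) and −0.04 in dCas9 against untreated (−0.32 to 0.24, adjusted p 0.996).

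Together the 10 genes took 0.965, 0.780 and 0.738% of all counts in untreated replicates 1, 2 and 3. They took 1.06, 1.03 and 0.919% in TALE replicates and 0.870, 0.760 and 0.772% in dCas9 replicates. TALE replicate 3 lies below untreated replicate 1, so the 2 groups overlap, while TALE lies above dCas9 throughout. Libraries with a low share of mitochondrial counts had a high share of these genes: the 3 TALE libraries, dCas9 replicate 1 and untreated replicate 1 had the 5 lowest mitochondrial shares and the 5 highest shares of these genes. With the mitochondrial genes removed before the fit, 0 of 10 were called in each contrast and the median log2 fold change in TALE against untreated was 0.20. Whether RNA quality or preparation has a part in the difference between TALE and the other groups was not tested.

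**Figure D3:**
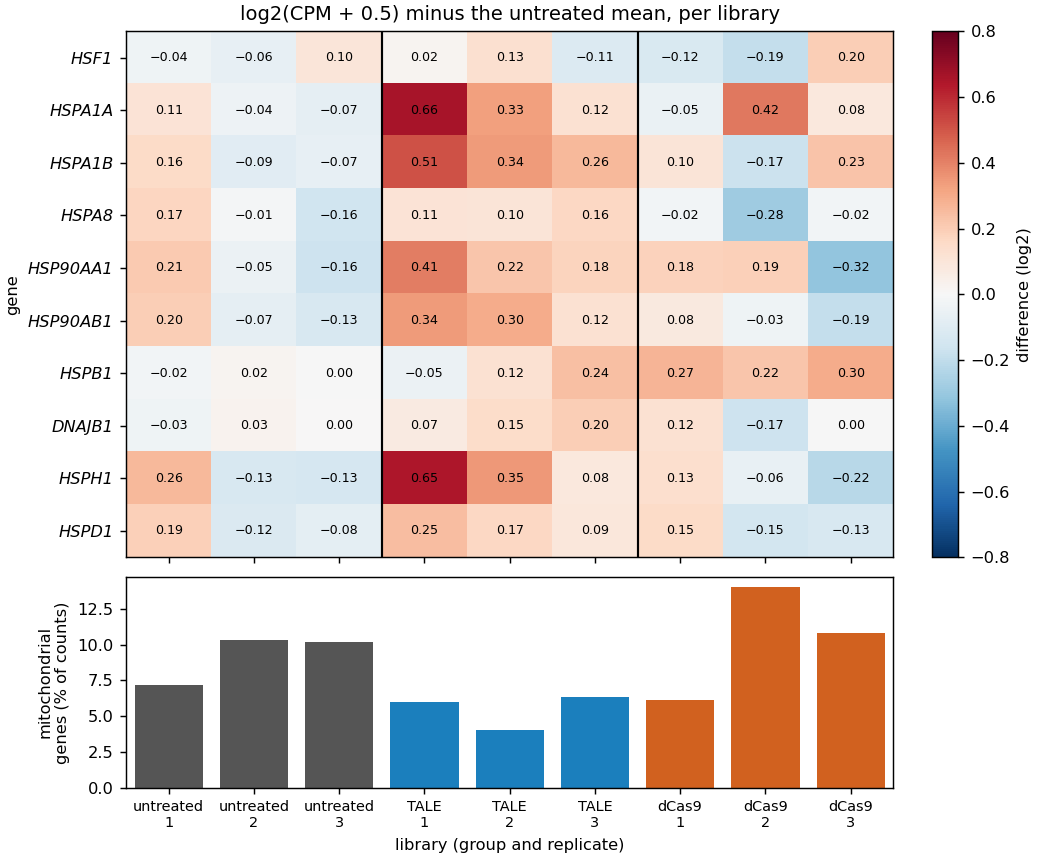
Each of the 10 genes (rows) in each of the 9 libraries (columns) as log2(CPM + 0.5) minus the gene's mean over the untreated libraries, with bars for the percent of counts from mitochondrially encoded genes in the same libraries. TALE replicate 1 has the highest values for HSPA1A and HSPH1, and the TALE bars, at 4.04 to 6.32%, are lower than the untreated bars.

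Levels can be compared between genes only per length. As CPM per kilobase of annotated exon, averaged over the 9 libraries, HSP90AB1 was highest at 728 ± 95.03, followed by HSPA8 at 653 ± 66.6, HSP90AA1 at 429 ± 64.4 and HSPB1 at 269 ± 25.6 (SD over 9 libraries). HSPD1 at 50.6 ± 5.51 and HSPA1A at 43.9 ± 8.10 came next, then HSPH1 at 17.0 ± 3.53, HSPA1B at 13.3 ± 2.09, HSF1 at 10.6 ± 0.96 and DNAJB1 at 10.1 ± 0.76. Neighbours in that order whose means lie within their joint spread are HSP90AB1 and HSPA8, HSPD1 and HSPA1A, HSPH1 and HSPA1B, HSPA1B and HSF1, and HSF1 and DNAJB1. Compared within each library, HSP90AB1 lay above HSPA8, and HSPH1 above HSPA1B, except in dCas9 replicate 3. HSPA1B lay above HSF1 except in untreated replicate 3. HSPD1 lay above HSPA1A except in TALE replicate 1 and dCas9 replicate 2. HSF1 lay above DNAJB1 except in TALE replicate 3 and dCas9 replicate 1. The constitutive chaperones HSPA8 and HSP90AB1 stood far above the inducible HSPA1A and HSPA1B in untreated as in silenced cells. The order does not follow inducibility throughout, since the stress-inducible HSP90AA1, at 429, also stood far above HSPA1A and HSPA1B. Reads that match both HSPA1A and HSPA1B would lower both of those levels if they were not counted. Dividing by the longest transcript in place of all exons put HSPA8 first, at 1372, with HSP90AB1 at 811, and placed DNAJB1 at 19.3, above HSF1 at 16.3 and HSPA1B at 13.3. The order at the top and at the bottom therefore rests on the gene model.

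Over the 9 libraries the coefficient of variation in CPM was lowest for DNAJB1, at 7.50%, and highest for HSPH1, at 20.7%, and HSPA1A, at 18.5%. The median over all tested genes was 14.8%. The highest library was 1.27 times the lowest for HSPB1 and 1.84 times the lowest for HSPH1, with the other 8 genes between these. Several of the genes moved together from library to library. The Pearson correlation of log2(CPM + 0.5) over the 9 libraries was 0.961 for HSP90AB1 with HSPH1, 0.913 for HSP90AB1 with HSPD1, 0.904 for HSPH1 with HSPD1 and 0.889 for HSP90AA1 with HSP90AB1. The near-identical pair HSPA1A and HSPA1B reached 0.513, with dCas9 replicate 2 on opposite sides for the 2 genes. The lowest values were −0.503 for HSF1 with HSP90AA1, −0.433 for HSPB1 with HSPH1. These values are descriptions over libraries that share depth and composition, group included.

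The same measure over all tested genes outside the 10 named those most like each gene. HSP90AB1 was most like RRM1 (0.981), PSMD1 (0.980) and PRMT5 (0.977), and HSPH1 most like GFM1 (0.984), PSMD1 (0.980) and DHX36 (0.980). PSMD1, a subunit of the proteasome cap, was thus among the nearest of both. HSPA1A was most like RBM28 (0.986), NAP1L4 (0.979) and NASP (0.974), and HSPA1B most like VOPP1 (0.980), LRRC47 (0.952) and MCM7 (0.951). HSPA8 was most like PLEKHB2 (0.976) and the pseudogenes YWHAZP3 (0.961) and HNRNPKP4 (0.936). HSP90AA1 was most like FEN1 (0.973), U2AF1 (0.962) and MRPS9 (0.962), and HSPD1 most like GMPS (0.971), YTHDF2 (0.969) and SEH1L (0.969). HSF1 was most like ELL (0.962), SGTA (0.927) and IRF3 (0.923). HSPB1 was most like EIF3F (0.972), SNORA12 (0.946) and NACAP1 (0.945), and DNAJB1 most like CTC-471F3.4 (0.967), RHOG (0.931) and RP11-152C15.1 (0.927). These are the highest values among 13786 genes over only 9 libraries, and they are given as a description.

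The rest of the chaperone machinery was read from 10 lists by role, with 116 genes listed and 102 tested. Of the 102, 0 were called in any contrast by edgeR. At an unadjusted p under 0.05, 3 were higher and 3 lower in TALE against untreated, 0 higher and 1 lower in dCas9 against untreated, 5 higher and 3 lower in TALE against dCas9, and 0 higher and 1 lower in silenced against untreated. In all, 5.88% of the listed genes passed in TALE against untreated, where 7.15% of all genes did. In dCas9 against untreated it was 0.98% against 5.93%. In TALE against dCas9 it was 7.84% against 6.38%, and the 5 that were higher there stand against 2.6% of all genes. In silenced against untreated it was 0.98% against 6.35%. These counts rest on single libraries: in TALE against untreated 18 of 104 listed genes passed without untreated replicate 1 (9.35% of all genes did) and 21 of 103 without TALE replicate 3 (14.4% of all). It was 1 of 104 without untreated replicate 2 (4.43% of all) and 1 of 104 without TALE replicate 1 (4.92% of all). In TALE against dCas9 the count ran from 3 of 104 without TALE replicate 1 (4.61% of all) to 18 of 103 without TALE replicate 3 (12.7% of all). The median log2 fold change over the 102 was 0.07, 0.00, 0.07 and 0.04 in that order.

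Among co-chaperones of HSP90, which load clients and time its ATP cycle, 13 of 14 tested genes lay above 0 in TALE against untreated, with a median of 0.18, and 11 of 14 did in dCas9 against untreated, with a median of 0.06. STIP1, the adaptor between HSP70 and HSP90, was at 494 ± 54.4 CPM untreated, 574 ± 35.3 TALE and 513 ± 10.7 dCas9 (SD, n = 3 each, as for the means that follow). PTGES3, the p23 co-chaperone, was at 252 ± 11.4, 288 ± 20.02 and 283 ± 21.1 CPM. Of chaperonins and mitochondrial chaperones, 15 of 15 lay above 0 in TALE against untreated, with a median of 0.11, and 5 of 15 in dCas9 against untreated, with a median of −0.03. This list also holds mitochondrial proteases. Its dCas9 count was 10 of 15 without untreated replicate 1 and without dCas9 replicate 3, and 2 of 15 without dCas9 replicate 1, while its TALE count was 14 or 15 with any library left out. CCT5, a subunit of the cytosolic chaperonin that folds actin and tubulin, was at 722 ± 85.2, 848 ± 35.8 and 682 ± 104 CPM. The inner-membrane protease YME1L1 was at 192 ± 13.5, 211 ± 3.69 and 213 ± 8.54 CPM.

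No gene of the other lists passed the adjusted threshold either. Of J-domain proteins, 15 of 19 lay above 0 in TALE against untreated (median 0.09). DNAJA1, a cytosolic partner of HSC70, was at 226 ± 40.4, 283 ± 46.4 and 237 ± 21.7 CPM in untreated, TALE and dCas9, and DNAJC2, which works at the ribosome, at 171 ± 9.12, 219 ± 47.1 and 191 ± 36.1 CPM. Of genes listed as HSP70 nucleotide exchange factors, the BAG family included, 8 of 10 lay above 0 (median 0.07), with BAG6 at 262 ± 3.52, 274 ± 18.1 and 247 ± 31.9 CPM and BAG1 at 25.2 ± 2.29, 30.1 ± 2.08 and 28.9 ± 3.82 CPM. Of the other HSP70 genes 5 of 9 did (median 0.09), with the endoplasmic reticulum chaperone HSPA5 at 490 ± 26.5, 520 ± 18.4 and 528 ± 30.2 CPM and HSPA14 at 90.0 ± 2.74, 78.7 ± 10.6 and 78.2 ± 4.60 CPM. Both organelle HSP90 genes lay above 0, with HSP90B1 at 606 ± 38.7, 701 ± 62.8 and 583 ± 52.6 CPM and TRAP1 at 312 ± 22.6, 330 ± 4.09 and 343 ± 14.5 CPM.

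Of the HSF family and its regulators, 0 of 2 tested genes lay above 0 in TALE against untreated. HSF2, a partner of HSF1, was at 37.4 ± 1.03, 36.3 ± 2.60 and 33.1 ± 2.74 CPM, and HSBP1, which binds HSF1 trimers, at 105 ± 11.52, 98.4 ± 15.3 and 97.9 ± 13.99 CPM. Of genes listed by symbol as small heat shock proteins 1 of 3 tested did, with HSPB11 at 68.7 ± 7.14, 64.1 ± 12.5 and 71.95 ± 13.1 CPM and HSPB3 near the filter at 1.62 ± 0.51, 1.30 ± 0.08 and 1.10 ± 0.57 CPM. In the list of stress genes of the endoplasmic reticulum and the integrated stress response, 8 of 21 did, with a median of −0.10. CANX, a lectin chaperone, was at 944 ± 86.3, 1005 ± 30.4 and 939 ± 62.7 CPM and the sensor ERN1 at 17.6 ± 0.68, 14.4 ± 2.88 and 14.8 ± 0.17 CPM.

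Among 7 other genes induced through HSF1, 3 lay above 0. The polyubiquitin gene UBB was at 573 ± 9.31, 567 ± 102 and 544 ± 71.2 CPM. MLF1 had the smallest p of the 102 listed genes in silenced against untreated, and was lower in both silenced groups: it was at 35.9 ± 0.57 CPM untreated, 26.9 ± 6.76 TALE and 24.3 ± 3.70 dCas9. All 6 silenced values lay below the 3 untreated ones, where 3.54% of all genes did not overlap in either direction. MLF1 was named for its small p in this same contrast, so the separation adds no separate support. Silenced against untreated gave MLF1 a log2 fold change of −0.49 (SE 0.136, edgeR adjusted p 0.352), and it was called only with TALE replicate 3 left out, at an adjusted p of 0.0384.

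**Figure D4:**
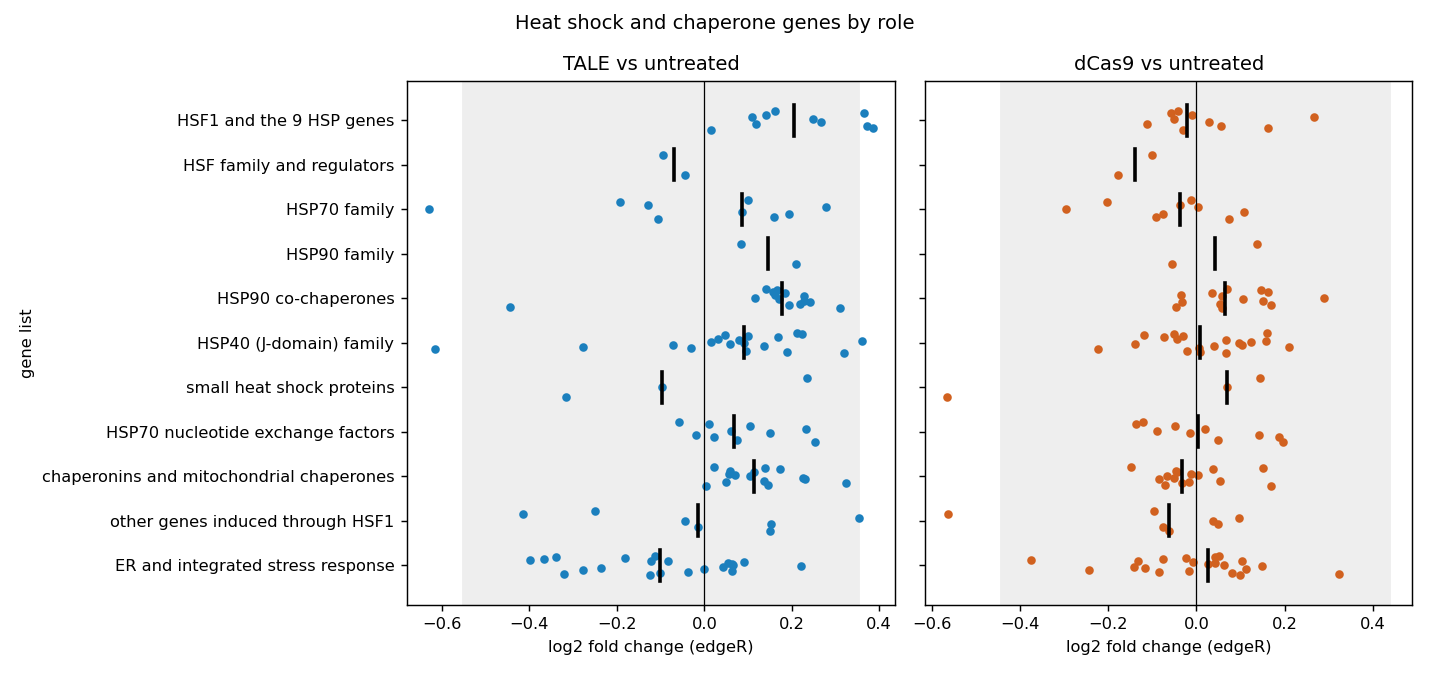
Log2 fold change of each tested gene of the 10 role lists and of the 10 heat shock genes, by list, with a black bar at each list's median and a grey band from the 5th to the 95th percentile of all tested genes. The HSP90 co-chaperones and the list of chaperonins and mitochondrial chaperones lie mostly above 0 in TALE against untreated, with medians of 0.18 and 0.11, inside the grey band.

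MeDIP-seq gave a second readout of these genes. Counts were deposited for 198884 regions that the antibody captured, with 2529729 to 4492751 counts per library, and 105652 regions were tested. None of the 15 promoter windows described above overlapped a listed region. Within 2 kb of an annotated start, alternative starts included, lay 15 regions of 7 genes (HSF1, HSPA1B, HSPA8, HSP90AB1, DNAJB1, HSPH1 and HSPD1), and 10 of the 15 passed the filter. Only 2 of the 15 overlapped a start, at the distal end of DNAJB1 and at an internal start of HSPD1. The listed regions thus lay beside the promoter windows and not in them. HSPA1A, HSP90AA1 and HSPB1 had no listed region that close.

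In the 10 tested regions edgeR called 0 in TALE against untreated (0% of all regions), 0 in dCas9 against untreated (0.000947%), 0 in TALE against dCas9 (0.000947%) and 0 in silenced against untreated (0%). At an unadjusted p under 0.05, 0 of 10 were found in TALE against untreated (4.74% of all), 1 in dCas9 against untreated (4.69%), 1 in TALE against dCas9 (4.47%) and 0 in silenced against untreated (4.88%). The groups did not overlap in CPM in 1 of the 10 regions for TALE and untreated (10.2% of all regions), 2 for dCas9 and untreated (10.3%), 1 for TALE and dCas9 (9.97%) and 1 for silenced and untreated (2.45%). These were 1 region at HSF1 and 1 at DNAJB1, and both in dCas9 against untreated. Both counts of 1 at an unadjusted p under 0.05 are the same region, chr19:14630115-14630453 in GRCh37, 0.896 kb upstream of a DNAJB1 start, with 14 CpG sites in 339 bases. It was at 9.52, 6.79 and 4.67 CPM in untreated replicates, 5.54, 4.71 and 7.97 in TALE replicates and 3.95, 2.86 and 3.45 in dCas9 replicates. The dCas9 values are the 3 lowest. In dCas9 against untreated its log2 fold change was −1.05 (SE 0.409), with an unadjusted edgeR p of 0.0121 and an adjusted p of 1.00, on counts of 8 to 31 per library. The next listed region of DNAJB1, chr19:14631961-14632225, lay 2.742 kb upstream of the same start and so outside the 2 kb limit. Its mean was higher in dCas9, at 9.34 ± 3.91 CPM, than in untreated, at 7.12 ± 2.20, or TALE, at 3.82 ± 1.61 (SD, n = 3 each). DNAJB1 RNA in dCas9 overlapped that of untreated cells.

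The widest regions near the starts had the most counts, and their groups overlapped. Upstream of HSPA1B, chr6:31792104-31794303 (GRCh37, 44 CpG sites) was at 66.1 ± 13.9 CPM untreated, 61.9 ± 5.03 TALE and 57.6 ± 7.12 dCas9 (SD, n = 3 each). Its log2 fold change in TALE against untreated was −0.10 (SE 0.135, edgeR adjusted p 1.00). Upstream of HSP90AB1, chr6:44210809-44212738 was at 39.8 ± 8.68, 45.6 ± 7.32 and 45.3 ± 2.36 CPM, and upstream of HSPD1, chr2:198382581-198385160 was at 37.8 ± 1.91, 34.6 ± 3.61 and 35.6 ± 5.85 CPM. In a region 0.851 kb downstream of an annotated alternative start of HSF1 all 6 silenced libraries lay above the 3 untreated ones, at 6.41 ± 0.915 CPM TALE and 6.66 ± 0.915 dCas9 against 4.44 ± 0.390 untreated. That difference, a log2 fold change of 0.56 (SE 0.336) in silenced against untreated, did not pass the test (unadjusted edgeR p 0.0997, adjusted p 1.00) on 11 to 28 counts per library.

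The peak lists were called by the authors in each sample separately. A peak lay within 2 kb of a start in all 9 samples for HSF1, HSPA1B, HSPA8, HSP90AB1, DNAJB1 and HSPD1, and in 7 of 9 for HSPB1. For HSP90AA1 it was 0 untreated, 1 TALE and 3 dCas9 samples, for HSPA1A 0, 1 and 2, and for HSPH1 1, 0 and 0. Any annotated start counted, alternative starts included, so a gene with more starts had more chances of a peak. Over all 62296 annotated genes, 21% had a peak that close to a start in all 9 samples. These genes are of all types and were not matched for number of starts. The split of HSP90AA1 was found in 29 genes, and its mirror image, 3 untreated, 1 TALE and 0 dCas9 samples, in 34. That of HSPA1A was found in 157 genes, with its mirror image in 144, and that of HSPH1 in 970. The lists held 87978 to 120603 peaks per sample, fewest in TALE replicate 1 and most in dCas9 replicate 2. With the authors' −log10 q of 5 or more required, samples with a peak fell to at most 2 of 9 for each gene, and to 0 for HSPA1B, HSPA8, HSP90AA1, HSPB1 and HSPH1. The same cut removed most peaks of the whole lists: it kept 8244 of 87978 in TALE replicate 1 and 18449 of 120603 in dCas9 replicate 2. Some of these peaks, those of HSPA1A, HSP90AA1 and HSPB1 among them, have no region in the count table that close to a start.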

How the data were processed

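RNA-seq and MeDIP-seq were analysed for 9 samples each, grouped by their titles. The deposited tables hold raw counts per gene symbol and per region, and the deposited peak lists give the authors' score, fold enrichment and −log10 of p and q. Per the submitters' processing notes, STAR 2.3.0 was used for RNA, BWA 0.7.5, Picard, MACS2 and bedtools for MeDIP, on hg19. The counter, annotation, strand and rule for multi-mapping reads are not given in the sources used here. Per the labels' protocols, the RNA libraries were made with a kit for FFPE (fixed, degraded) RNA, and MeDIP libraries were pooled before capture.

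Tests of counts used edgeR 4.0.16 under R 4.3.3 (glmQLFit and glmQLFTest, TMM, filterByExpr with a minimum of 10 counts, 1 model of group means over the 9 libraries of an assay). P-values were adjusted by Benjamini-Hochberg over all features tested, with calls under 0.05. Log2 fold changes use a prior count of 0.125, and correlations and exact two-sided permutation tests a pseudocount of 0.5 CPM. The fit was tested on simulated data. Positions are from GENCODE on GRCh37, the sequence of hg19, and promoter windows from RefSeq on GRCh38.p14. The 10 genes, the role lists and the tests were chosen with earlier results of these data known. Beside the 10 genes, the rule named in each role list the gene with the highest mean CPM and the gene with the smallest p in silenced against untreated, any listed gene that passed the threshold, and the 3 genes most like each of the 10. Alternatives were DESeq2 1.42.0, upper-quartile factors, other filters, only the groups compared, a replicate block, each library left out, and, added after seeing the data, mitochondrial genes removed. Of the cell type markers listed for the check of the line, 2 are not reported here.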

Additional observations from a re-analysis of the deposited data

How the results depend on the processing

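Of the 10 genes, 0 were called under any setting, and the smallest adjusted p of any of them over 638 alternative values was 0.109 (HSPH1, TALE against dCas9). Of these values 603 kept the sign of the reported fold change and 35 reversed it, all for differences near 0. In TALE against untreated HSF1 was −0.013 with upper-quartile factors and ran from −0.044 to 0.076 with single libraries left out. HSF1 ran from −0.157 to 0.043 in dCas9 against untreated, from −0.027 to 0.168 in TALE against dCas9 and from −0.072 to 0.043 in silenced against untreated, where it was 0.015 with no filter. HSPA8 in silenced against untreated was −0.0091 with upper-quartile factors, −0.0035 with at least 10 counts in every library and −0.072 to 0.095 with libraries left out. In dCas9 against untreated the ranges were −0.117 to 0.056 for HSP90AB1, −0.155 to 0.088 for HSPH1, −0.149 to 0.061 for HSPD1, −0.083 to 0.061 for DNAJB1 (0.0020 with no filter), −0.055 to 0.179 for HSP90AA1 and −0.035 to 0.158 for HSPA1B. Values that kept their sign moved too: over all settings TALE against untreated ran from 0.187 to 0.381 for HSP90AA1, from 0.185 to 0.357 for HSP90AB1, from 0.105 to 0.267 for HSPD1, from 0.043 to 0.184 for HSPB1 and from 0.228 to 0.502 for HSPA1A. The count of genes called over the whole RNA table moved more. It was 9 in TALE against untreated, 27 in dCas9 against untreated and 36 in silenced against untreated with DESeq2, against 3, 4 and 5 with edgeR. With no filter it was 74, 89, 77 and 79 in TALE against untreated, dCas9 against untreated, TALE against dCas9 and silenced against untreated. With at least 10 counts in every library it was 1, 2 and 3 in TALE, dCas9 and silenced against untreated, and with only the groups compared it was 8 in dCas9 against untreated. Leaving out 1 library gave 2 to 16, 2 to 10, 0 to 21 and 2 to 33 in the 4 contrasts, and 0 to 1 of the role-list genes in silenced against untreated. For MeDIP regions DESeq2 gave 0 in dCas9 against untreated and 0 in TALE against dCas9. No filter gave 2, 0 and 1 in dCas9 against untreated, TALE against dCas9 and silenced against untreated, and at least 5 counts in every library gave 1, 0 and 2 in TALE, dCas9 and silenced against untreated. Only the groups compared gave 0 in dCas9 against untreated. Leaving out 1 library gave 0 to 2, 0 to 3, 0 to 1 and 0 to 2 regions in the 4 contrasts. The cause of these changes was not tested. Replicate numbers did not pair the samples: same-numbered RNA libraries had deviations that correlated from −0.28 to 0.10, and MeDIP libraries from −0.0047 to 0.0040. With the replicate block 2 RNA genes and 0 MeDIP regions were called in dCas9 against untreated, and 0 of the 10 genes in any contrast. The comparison of silenced with untreated has no separate fit with only the groups compared, since it already uses all 3 groups.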
